A study of Mus musculus with 17 samples.

Results

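Collagen mRNA was measured in colorectal tumors of mice that lack the Janus kinase Tyk2 in all cells or in the intestinal epithelium. The genes described here are those with a mouse symbol of the form Col, a number, a, a number, and with at least 10 counts in at least 3 of the 17 libraries. This rule gave 38 of the 55421 genes in the count tables, and 18087 genes of any kind met the same minimum. Of the 44 collagen genes by symbol, 33 reached 10 counts in all 17 libraries. Just inside the minimum were Col8a2 with 4 such libraries and Col10a1 with 6, and just outside it was Col4a4, which reached 10 counts in 1 library and had at most 15. Also below it were Col4a3, Col6a6, Col11a1, Col19a1 and Col26a1, none of which exceeded 8 counts in any library. By structure the 38 genes comprised 10 fibrillar, 8 fibril-associated, 5 beaded filament, 4 basement membrane network, 4 transmembrane, 3 short-chain network, 2 multiplexin and 1 anchoring fibril collagen, and Col28a1.

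Tumors of 4 genotypes were compared in 2 experiments, all after an injection of the mutagen azoxymethane (AOM) followed by repeated cycles of dextran sulfate sodium (DSS) in the drinking water, which together induce tumors on a background of colitis. Tyk2KO mice (3 libraries) carry a germline deletion made with a CMV-cre deleter strain that was then crossed out, and Tyk2wt mice (3 libraries) are their wild-type controls from the same crosses. Tyk2DIEC mice (4 libraries) carry floxed Tyk2 alleles and Villin-cre, which is active in epithelial cells of the intestine, so that their fibroblasts, vessels and leukocytes keep Tyk2. Tyk2fl mice (7 libraries) are cre-negative animals with the same floxed alleles. All mice had a C57BL/6 background. Age and sex are not given in the labels, and nothing there ties a library to 1 animal, so p-values measure the spread between these libraries.

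Collagens are triple-helical proteins of the extracellular matrix, built from 3 chains that can be products of 1, 2 or 3 genes. Fibrillar collagens (types I, III and V in most soft tissues) are made mainly by fibroblasts and form the fibers of the stroma, whereas type IV collagen forms the sheet of the basement membrane under epithelium and around vessels. Fibril-associated collagens bind to the surface of fibers, and transmembrane and anchoring fibril collagens tie cells to the matrix. In colorectal tumors the fibrous stroma is laid down by cancer-associated fibroblasts, and its density differs widely between tumors.

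Counts on genes per library were 19922606 to 21707373 in Tyk2KO, 19789347 to 21318077 in Tyk2wt, 19129696 to 20334948 in Tyk2DIEC and 29777763 to 35427965 in Tyk2fl tumors, so that the Tyk2fl libraries were the deepest. Tyk2 itself had 1177 to 1257 counts in Tyk2KO, 1092 to 1199 in Tyk2wt, 1020 to 1113 in Tyk2DIEC and 1359 to 1943 in Tyk2fl libraries. These counts run over the whole gene and not over the floxed exon alone, so that they check no label. The 8 colon epithelium markers summed to 5563 to 8666 CPM over the 17 libraries (CPM are gene counts scaled to a common library size, with TMM factors). Xist had 40656 to 45446 counts in Tyk2fl replicates 1 to 3 and at most 106 in the other 14 libraries, and the counts of collagen genes called against Tyk2fl are therefore also given for replicates 4 to 7. In Tyk2DIEC replicate 1 the 10 smooth muscle markers summed to 1395 CPM, against 183 to 226 CPM in the other 3 Tyk2DIEC libraries.

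All 38 collagen genes together took 1775, 2996 and 3081 CPM in Tyk2KO tumors, against 1959, 2540.2 and 1764 CPM in Tyk2wt tumors. The sums were 2425, 2820.3, 2419.9 and 2356 CPM in Tyk2DIEC tumors and 2231 to 3646 with a median of 2936 CPM in Tyk2fl tumors. In both experiments the 2 genotypes overlapped. The lowest sums of all 17 libraries were those of Tyk2wt replicate 3 and Tyk2KO replicate 1. The 10 fibrillar genes held 55.8 to 61.5% of the collagen counts in Tyk2KO, 55.7 to 58.6% in Tyk2wt, 50.4 to 54.2% in Tyk2DIEC and 53.3 to 64.7% in Tyk2fl libraries, which was more than 50% in every library. Tyk2fl replicates 1 to 3, those with high Xist, held 53.3 to 54.1%, and replicates 4 to 7 held 56.2 to 64.7%. The overlap with Tyk2DIEC in this share thus came from replicates 1 to 3.

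To compare levels between genes, CPM were divided by the length in kb of the longest protein-coding transcript. On this scale Col3a1 was highest, with a mean of 104 CPM per kb over the 17 libraries, followed by Col1a2 (63.1), Col1a1 (62.8), Col4a1 (45.7), Col4a2 (27.2), Col18a1 (24.4) and Col9a3 (21.3 CPM per kb). The chains of type VI collagen, which forms beaded filaments between cells and fibers, followed with 15.0 CPM per kb for Col6a1, 12.2 for Col6a2 and 6.18 for Col6a3. At the other end stood Col2a1 (0.103 CPM per kb), the main collagen of cartilage, Col10a1 (0.110), a marker of hypertrophic cartilage, Col8a2 (0.0591), Col4a6 (0.0566) and Col25a1 (0.0566). Col2a1 and Col10a1 of cartilage were near the minimum, whereas Col9a3, a chain of the type IX collagen known from cartilage, was among the leading genes.

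**Figure D1:**
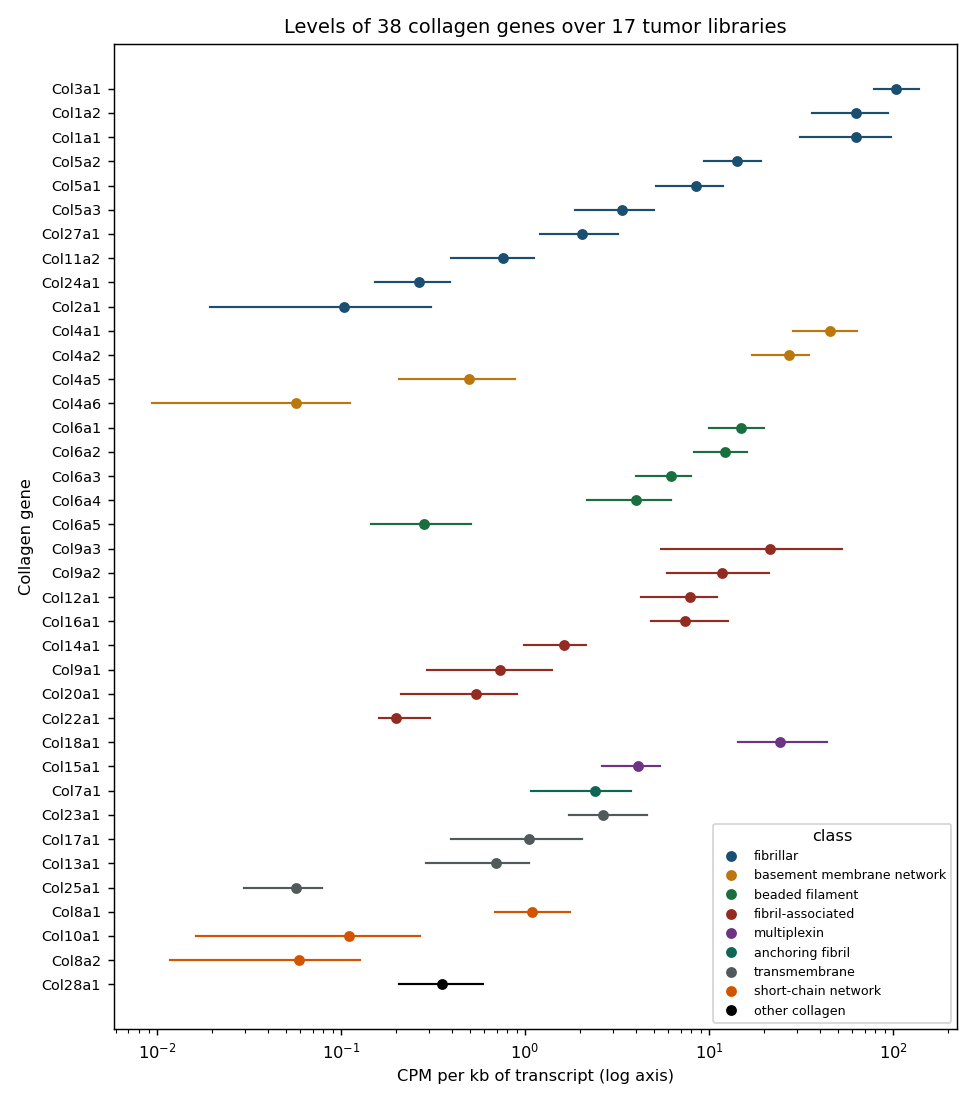
Level of each of the 38 collagen genes in CPM per kb of transcript (log axis); points are means over the 17 libraries, lines run between the lowest and highest library, and colors give the class. Col3a1, Col1a2 and Col1a1 lead the fibrillar class and Col4a1 and Col4a2 the basement membrane class, while the line of Col9a3 is among the widest of the abundant genes.

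The levels of the fibrillar genes differed widely between libraries of 1 genotype. Col3a1 (chr1:45311538-45349706, GRCm38), the chain of the type III collagen that forms thin reticular fibers, had 438, 755 and 771 CPM in Tyk2KO tumors, against 505, 671 and 462 CPM in Tyk2wt tumors. It had 483, 617, 488 and 479 CPM in Tyk2DIEC tumors, against 439 to 729 with a median of 599 CPM in Tyk2fl tumors. The groups overlapped in both experiments.

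Col1a1 (chr11:94936224-94953042) encodes the major chain of type I collagen, the load-bearing fiber of the stroma. Col1a1 had 212, 429 and 439 CPM in Tyk2KO tumors, against 231, 258 and 185 CPM in Tyk2wt tumors. In the other experiment Col1a1 had 277, 374, 292 and 283 CPM in Tyk2DIEC tumors, against 319.8 to 576 with a median of 483 CPM in Tyk2fl tumors. Tyk2KO replicates 2 and 3 lay above all Tyk2wt libraries and replicate 1 lay among them, and of the Tyk2fl libraries only replicate 1 fell inside the Tyk2DIEC range.

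Its partner chain Col1a2 (chr6:4504814-4541544) had 205, 406 and 412 CPM in Tyk2KO tumors, against 249, 279 and 195 CPM in Tyk2wt tumors. Col1a2 had 259, 317, 247 and 233 CPM in Tyk2DIEC tumors, against 282 to 505 with a median of 438 CPM in Tyk2fl tumors. The same Tyk2KO library and the same Tyk2fl library were low for both chains. Col5a2, a chain of the type V collagen that starts type I fibers, had 62.4, 119 and 126 CPM in Tyk2KO tumors, against 80.6, 97.2 and 75.9 CPM in Tyk2wt tumors. For Col5a2 the values were 90.6, 99.4, 86.5 and 85.5 CPM in Tyk2DIEC and 68.6 to 124 with a median of 96.5 CPM in Tyk2fl tumors. Here the Tyk2DIEC range lay wholly inside that of Tyk2fl. The other fibrillar genes were lower, over the 17 libraries, with Col5a1 at 43.2 to 99.7 CPM, Col5a3 at 11.4 to 30.6 CPM, Col27a1 at 9.14 to 24.3 CPM, Col11a2 at 2.41 to 6.78 CPM, Col24a1 at 1.09 to 2.78 CPM and Col2a1 at 0.0992 to 1.57 CPM.

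Col4a1 and Col4a2 encode the chains of the common form of type IV collagen and lie head to head on chromosome 8 (chr8:11198423-11312826 on the minus strand and chr8:11312805-11449287 on the plus strand). Col4a1 had 189, 298 and 314 CPM in Tyk2KO tumors, against 211, 294 and 191 CPM in Tyk2wt tumors. It had 333, 369, 321 and 326 CPM in Tyk2DIEC tumors and 243 to 422 with a median of 317 CPM in Tyk2fl tumors. Neither experiment separated its groups. Col4a2 had 111, 168 and 186 CPM in Tyk2KO tumors and 111, 162 and 121 CPM in Tyk2wt tumors. Col4a2 had 195, 226, 198 and 194 CPM in Tyk2DIEC tumors and 149 to 219 with a median of 188 CPM in Tyk2fl tumors. In Tyk2KO tumors replicate 3 was highest and replicate 1 lowest for both chains, and in Tyk2DIEC tumors replicate 2 was highest for both. Col4a5, which is X-linked and takes part in another type IV network, had 3.10, 3.18 and 2.82 CPM in Tyk2KO and 3.26, 5.44 and 2.89 CPM in Tyk2wt tumors. Col4a5 values were 5.11, 2.86, 3.70 and 2.18 CPM in Tyk2DIEC and 1.34 to 5.80 with a median of 2.76 CPM in Tyk2fl tumors. Its groups overlapped, with Tyk2wt replicate 2, Tyk2DIEC replicate 1 and Tyk2fl replicate 3 the highest of their groups. Col4a6, its neighbor on the X chromosome, had 0.647, 0.447 and 0.376 CPM in Tyk2KO and 0.144, 0.513 and 0.144 CPM in Tyk2wt tumors. Col4a6 values were 0.717, 0.306, 0.241 and 0.203 CPM in Tyk2DIEC and 0.0626 to 0.748 with a median of 0.356 CPM in Tyk2fl tumors. These values stayed below 1 CPM and rest on few counts.

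Promoter windows of RefSeq (build GRCm38.p6, 250 bases before to 50 bases after an annotated start) were found for 31 of the 38 collagen genes and comprised 34 windows. The windows of Col4a1 and Col4a2 overlap by 78 bases on opposite strands, since the genes run in opposite directions from annotated starts that lie 21 bases apart. They are shown because the ratio of these genes stayed within 1.53 to 1.88 per kb over all 17 libraries, beside Col1a2 and Col3a1, the most abundant fibrillar genes with a window. Col6a1 over Col6a2, whose windows do not overlap, stayed within 1.13 to 1.33. The part of the overlap in the ratio was not tested. Capitals mark CCAAT or its reverse complement ATTGG, and all sequences run in the direction of the gene.
Col4a1, chr8:11312777-11313076, minus strand: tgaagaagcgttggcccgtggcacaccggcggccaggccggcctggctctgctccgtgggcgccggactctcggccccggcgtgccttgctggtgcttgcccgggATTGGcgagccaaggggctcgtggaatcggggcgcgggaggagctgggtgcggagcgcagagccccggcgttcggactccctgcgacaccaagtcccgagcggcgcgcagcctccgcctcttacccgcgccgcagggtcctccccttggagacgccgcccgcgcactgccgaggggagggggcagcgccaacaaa
Col4a2, chr8:11312555-11312854, plus strand: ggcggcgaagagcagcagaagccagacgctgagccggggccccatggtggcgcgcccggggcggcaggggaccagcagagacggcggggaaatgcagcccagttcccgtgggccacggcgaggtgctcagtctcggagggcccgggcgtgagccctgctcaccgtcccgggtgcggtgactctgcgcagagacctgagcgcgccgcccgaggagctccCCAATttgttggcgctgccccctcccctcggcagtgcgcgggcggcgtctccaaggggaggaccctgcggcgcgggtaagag
Col1a2, chr6:4505368-4505667, plus strand: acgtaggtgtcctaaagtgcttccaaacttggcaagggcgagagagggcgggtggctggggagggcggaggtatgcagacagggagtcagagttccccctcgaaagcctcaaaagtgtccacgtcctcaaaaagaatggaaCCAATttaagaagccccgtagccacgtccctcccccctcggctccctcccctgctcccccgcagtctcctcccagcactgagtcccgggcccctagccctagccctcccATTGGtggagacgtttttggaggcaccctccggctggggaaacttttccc
Col3a1, chr1:45311288-45311587, plus strand: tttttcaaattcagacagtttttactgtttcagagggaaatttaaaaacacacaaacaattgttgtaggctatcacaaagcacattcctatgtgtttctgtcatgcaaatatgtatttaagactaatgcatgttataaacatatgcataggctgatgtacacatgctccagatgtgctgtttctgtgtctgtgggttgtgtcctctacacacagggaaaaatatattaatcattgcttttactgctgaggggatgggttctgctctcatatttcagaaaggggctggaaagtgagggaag
Searched on both strands, CCAAT was present in 12 of 34 collagen windows (35.3%) and in 37.4% of all 32851 windows in the table. GGGCGG, the GC box, was present in 21 of 34 windows (61.8%) and in 35.7% of all, and TATAAA in 5 of 34 (14.7%) and in 13.6% of all. Matches to different motifs were counted separately, also where they overlap. The Col4a1 and Col4a2 windows hold 1 CCAAT each, the Col1a2 window holds 2, and the Col3a1 window has no CCAAT and no GC box but 1 TATAAA. Matches describe letters only. No window was used for Col1a1, Col2a1, Col5a2, Col9a3, Col12a1, Col14a1 and Col22a1.

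The beaded filament genes differed little between genotypes, with no call in any comparison. Col6a1 had 48.4, 56.5 and 56.0 CPM in Tyk2KO tumors, against 40.9, 81.7 and 46.8 CPM in Tyk2wt tumors. For Col6a1 the Tyk2DIEC libraries had 76.0, 73.0, 69.8 and 57.4 CPM and the Tyk2fl libraries 51.5 to 80.6 with a median of 57.0 CPM. Tyk2wt replicate 2 was the highest of all 17 libraries. Col6a2, from the neighboring locus on chromosome 10, had 45.1, 54.3 and 51.7 CPM in Tyk2KO and 38.6, 73.2 and 45.0 CPM in Tyk2wt tumors. Col6a2 values were 66.9, 66.3, 59.4 and 51.2 CPM in Tyk2DIEC and 45.3 to 74.9 with a median of 55.5 CPM in Tyk2fl tumors. Tyk2wt replicate 2 was again the highest of its group. Col6a3, which encodes the long chain of the filament, had 40.6, 69.2 and 70.8 CPM in Tyk2KO and 52.8, 71.2 and 51.1 CPM in Tyk2wt tumors. Col6a3 values were 64.8, 76.7, 63.6 and 65.9 CPM in Tyk2DIEC and 47.6 to 81.1 with a median of 63.3 CPM in Tyk2fl tumors. Here Tyk2KO replicate 1 was again below replicates 2 and 3. Col6a4, which encodes an alternative chain, had 25.6, 21.9 and 26.2 CPM in Tyk2KO and 19.3, 34.2 and 16.1 CPM in Tyk2wt tumors. Col6a4 values were 41.7, 38.3, 25.8 and 27.2 CPM in Tyk2DIEC and 19.9 to 45.9 with a median of 31.0 CPM in Tyk2fl tumors. Col6a5 ranged over 1.35 to 4.75 CPM, and none of these genes separated the groups of either experiment.

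Type IX collagen, best known from the surface of cartilage fibers, is assembled from the products of Col9a1 (chr1:24177610-24252684), Col9a2 (chr4:121039385-121055322) and Col9a3 (chr2:180597790-180622189). Col9a3 had 40.9, 55.7 and 57.7 CPM in Tyk2KO tumors, against 45.0, 37.6 and 25.1 CPM in Tyk2wt tumors. Col9a3 had 35.4, 16.7, 31.6 and 42.8 CPM in Tyk2DIEC tumors, against 48.9 to 161 with a median of 96.8 CPM in Tyk2fl tumors. All 4 Tyk2DIEC libraries lay below all 7 Tyk2fl libraries, which themselves spread over more than a 3-fold range.

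Col9a1 was far lower than Col9a3 per kb, with means of 0.733 and 21.3 CPM per kb. It had 2.13, 2.48 and 1.74 CPM in Tyk2KO tumors, against 1.82, 2.26 and 2.12 CPM in Tyk2wt tumors. Col9a1 had 2.05, 1.12, 1.54 and 1.27 CPM in Tyk2DIEC tumors, against 3.35 to 5.37 with a median of 3.87 CPM in Tyk2fl tumors. The Tyk2DIEC values rest on 22 to 43 counts per library and the Tyk2fl values on 107 to 185, and the groups did not overlap.

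Col9a2, the third chain, had 41.3, 24.3, 40.4 and 40.3 CPM in Tyk2DIEC tumors, against 31.7 to 61.6 with a median of 40.2 CPM in Tyk2fl tumors. In the germline experiment Col9a2 had 33.8, 23.7 and 21.5 CPM in Tyk2KO tumors, against 17.3, 30.9 and 18.3 CPM in Tyk2wt tumors. Only Tyk2DIEC replicate 2 was low for Col9a2 in its group, and the other 3 lay within the Tyk2fl range. Type II collagen, whose fibers type IX coats in cartilage, was near the minimum throughout (Col2a1, above).

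Of the other fibril-associated genes, Col12a1 encodes a large collagen of dense connective tissue. It had 49.4, 118 and 127 CPM in Tyk2KO tumors, against 81.3, 78.8 and 69.7 CPM in Tyk2wt tumors. Col12a1 values were 77.3, 111, 102 and 110.4 CPM in Tyk2DIEC and 63.1 to 114 with a median of 82.7 CPM in Tyk2fl tumors. Tyk2KO replicate 1 lay below and replicates 2 and 3 above all Tyk2wt libraries. Col16a1 had 29.8, 39.6 and 41.7 CPM in Tyk2KO tumors, against 30.0, 29.4 and 25.3 CPM in Tyk2wt tumors. For Col16a1 the Tyk2DIEC libraries had 38.9, 30.0, 32.1 and 25.1 CPM, against 30.6 to 65.8 with a median of 45.1 CPM in Tyk2fl libraries. Both pairs of groups overlapped at their edges. Col14a1 (6.35 to 13.9 CPM over the 17 libraries), Col20a1 (1.06 to 4.51 CPM) and Col22a1 (1.41 to 2.68 CPM) were lower.

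The multiplexins Col18a1 and Col15a1 encode basement membrane collagens, and the end fragment of the Col18a1 product is the angiogenesis inhibitor endostatin. Col18a1 had 98.8, 139.9 and 144 CPM in Tyk2KO tumors and 90.6, 141 and 80.1 CPM in Tyk2wt tumors. It had 139, 153, 123 and 116 CPM in Tyk2DIEC tumors and 106 to 246 with a median of 141 CPM in Tyk2fl tumors. Groups overlapped in both experiments. Col15a1 had 15.0, 22.2 and 20.8 CPM in Tyk2KO and 13.6, 23.2 and 14.0 CPM in Tyk2wt tumors. Col15a1 values were 19.6, 24.6, 23.3 and 24.5 CPM in Tyk2DIEC and 18.5 to 28.1 with a median of 22.1 CPM in Tyk2fl tumors. Its groups overlapped as well.

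Col7a1, the anchoring fibril collagen found under stratified epithelium, had 9.98, 35.0 and 30.1 CPM in Tyk2KO and 11.3, 11.5 and 20.2 CPM in Tyk2wt tumors. Col7a1 had 19.0, 27.7, 33.8 and 32.4 CPM in Tyk2DIEC and 12.9 to 29.3 with a median of 19.5 CPM in Tyk2fl tumors. For both genotype pairs Col7a1 overlapped. Col17a1, the hemidesmosome collagen of basal epithelial cells, had 3.97, 9.18 and 7.80 CPM in Tyk2KO and 2.20, 4.10 and 6.06 CPM in Tyk2wt tumors. It had 3.73, 11.4, 10.7 and 5.63 CPM in Tyk2DIEC and 3.16 to 8.85 with a median of 4.85 CPM in Tyk2fl tumors. For both genes Tyk2KO replicate 1 was the lowest of its group. The 8 squamous epithelium markers summed to 109, 275 and 257 CPM in Tyk2KO and 119, 145 and 278 CPM in Tyk2wt tumors. They summed to 88.1, 361, 278 and 133 CPM in Tyk2DIEC and 83.5 to 248 with a median of 116 CPM in Tyk2fl tumors. Tyk2KO replicate 1 was thus the lowest of its group in this sum too, whereas Tyk2fl replicate 7, the lowest Tyk2fl library in this sum, had the most Col7a1 of its group. The part of these cells in the Col7a1 and Col17a1 values was not tested. Col23a1, a transmembrane collagen, had 13.0, 11 and 10.7 CPM in Tyk2KO and 10.3, 16.2 and 11.7 CPM in Tyk2wt tumors. Col23a1 values were 15.0, 13.8, 18.9 and 16.5 CPM in Tyk2DIEC and 9.80 to 26.1 with a median of 14.0 CPM in Tyk2fl tumors. Of these values the highest was that of 1 Tyk2fl library. Col13a1, a transmembrane collagen of cell contacts, had 1.02, 2.93 and 2.68 CPM in Tyk2KO and 1.48, 2.05 and 0.914 CPM in Tyk2wt tumors. Col13a1 values were 2.58, 2.20, 1.64 and 1.17 CPM in Tyk2DIEC and 2.01 to 3.32 with a median of 2.94 CPM in Tyk2fl tumors. The Tyk2KO and Tyk2wt ranges overlapped, as did those of Tyk2DIEC and Tyk2fl. Col25a1, the fourth of the class, ranged over 0.198 to 0.529 CPM.

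Col8a1 (chr16:57624258-57754737), a short-chain network collagen of vessel walls and of the cornea, had 3.51, 4.22 and 4.04 CPM in Tyk2KO tumors, against 7.04, 5.44 and 5.10 CPM in Tyk2wt tumors. All 3 Tyk2KO libraries lay below all 3 Tyk2wt libraries. It had 6.88, 5.51, 5.82 and 5.74 CPM in Tyk2DIEC and 3.88 to 8.94 with a median of 5.29 CPM in Tyk2fl tumors, with no such gap. The other short-chain genes were at 0.0513 to 0.843 CPM (Col10a1) and 0.0508 to 0.552 CPM (Col8a2) over the 17 libraries. Col28a1, which belongs to none of these classes, had 1.11, 1.19 and 1.64 CPM in Tyk2KO and 1.44, 1.18 and 1.44 CPM in Tyk2wt tumors. Col28a1 values were 1.15, 1.12, 1.49 and 1.62 CPM in Tyk2DIEC and 0.876 to 2.50 with a median of 1.76 CPM in Tyk2fl tumors. Its groups overlapped.

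**Figure D2:**
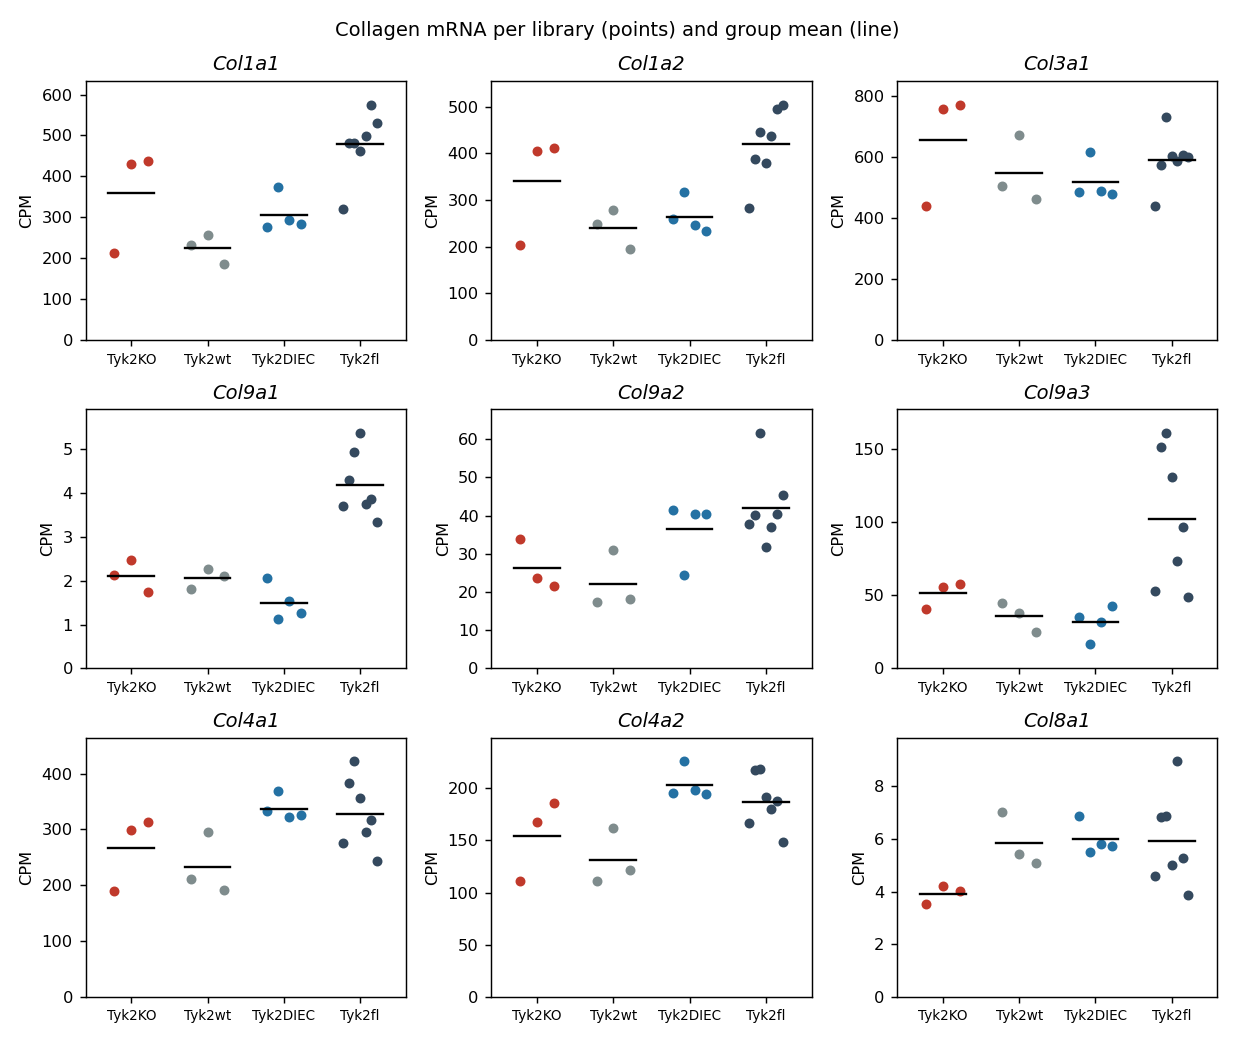
CPM of 9 collagen genes by genotype, with 1 point per library and a line at the group mean. Tyk2DIEC points lie below all Tyk2fl points for Col9a1 and Col9a3 but not for Col9a2, and in the panels of Col1a1, Col1a2 and Col3a1 1 of the 3 Tyk2KO libraries lies far below the other 2.

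The first comparison asked which collagen mRNAs differ when all cells of the tumor lack Tyk2. In Tyk2KO against Tyk2wt tumors edgeR called 0 of the 33 collagen genes tested, while 2.80% of all 16179 genes tested were called. The 5 others (Col2a1, Col4a6, Col8a2, Col10a1 and Col25a1) did not pass the low-count filter. At an unadjusted p under 0.05 there were 5 of 33 collagen genes, a smaller share than the 3681 of all 16179 genes. DESeq2 and limma voom also called 0, and the fitted log2 fold changes lay between -0.59 and 0.80. The median over the 33 genes was 0.20, against 0.00 over all genes tested, and 10 of 33 were negative, against 49.3% of all genes. By class the medians were 0.27 for 9 fibrillar, 0.14 for 8 fibril-associated, 0.20 for 3 basement membrane and 0.04 for 5 beaded filament genes.

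Col1a1 averaged 360.0 ± 128 CPM in Tyk2KO and 225 ± 36.9 CPM in Tyk2wt tumors (SD, n = 3 each), a log2 fold change of 0.67 ± 0.26 (SE) with an edgeR adjusted p of 0.173. Col1a2 gave 0.50 ± 0.25 (edgeR adjusted p = 0.287) and Col3a1 0.25 ± 0.22 (0.528). Col8a1, the one collagen gene whose groups did not overlap in this comparison, gave -0.59 ± 0.18 (edgeR adjusted p = 0.118), and 13.9% of all genes tested had all Tyk2KO libraries below all Tyk2wt libraries. Tyk2KO replicate 1 had a fibrillar sum of 991 CPM, against 1842 and 1884 CPM in replicates 2 and 3. Without it, edgeR called 2 of 33 collagen genes higher in Tyk2KO tumors, and of all 16447 genes then tested 60 were called higher and 153 lower. These were Col1a1 (0.94, edgeR adjusted p = 0.0256) and Col12a1 (0.67, edgeR adjusted p = 0.0206).

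Among the genes that handle collagen, none passed the edgeR test in Tyk2KO tumors in the lists of 20 chaperones and modifying enzymes, 12 genes of procollagen processing and cross-linking, 8 small leucine-rich proteoglycans, 15 other basement membrane genes, 9 collagen receptors and 10 genes of collagen degradation. Over all 16179 genes tested, 345 were called lower and 108 higher. Of 13 fibroblast markers 1 fell (Dpt, -1.46), with a list median of -0.04. In the same tumors 6 of 10 smooth muscle markers fell (median -1.22), among them Acta2 (-0.72), Cnn1 (-2.45) and Tagln (-1.25), and 2 of 6 leukocyte markers fell (median -0.74). The smooth muscle markers summed to 134, 159 and 209.9 CPM in Tyk2KO tumors, against 385, 269.8 and 465 CPM in Tyk2wt tumors. The sums did not overlap, and the part of this difference in the collagen values was not tested. In bulk tumor RNA, fewer cells of a type and less RNA per cell cannot be told apart.

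The second comparison asked the same for loss of Tyk2 in the epithelium alone, with a stroma that keeps it. In Tyk2DIEC against Tyk2fl tumors all 38 collagen genes were tested, and edgeR called 4 lower and 0 higher. These 10.5% compare with 9.71% of all 17668 genes called lower, a share near the background, and with 19.9% called in either direction. The 4 genes were Col1a1, Col1a2, Col9a1 and Col9a3. Col9a1 and Col9a3 passed the 2-fold minimum, which 1.64% of all genes passed downward, and only for them did the groups not overlap, which held for 7.81% of all genes with Tyk2DIEC below Tyk2fl.

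Col9a3 averaged 31.6 ± 11 CPM in Tyk2DIEC (n = 4) and 102 ± 46.4 CPM in Tyk2fl tumors (n = 7, SD), with a log2 fold change of -1.69 ± 0.37 (SE, edgeR adjusted p = 0.00933). For Col9a1 the means were 1.497 ± 0.410 and 4.18 ± 0.731 CPM in Tyk2DIEC and Tyk2fl tumors and the log2 fold change -1.48 ± 0.20 (edgeR adjusted p = 0.00116). The partner chain Col9a2 gave -0.20 ± 0.18 (edgeR adjusted p = 0.461). Thus 2 of the 3 chains of type IX collagen fell and the other did not pass the test. Whether Col9a2 differs from its partners in this change was not tested.

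Col1a1 averaged 306 ± 45.3 CPM in Tyk2DIEC and 479 ± 79.6 CPM in Tyk2fl tumors with a log2 fold change of -0.64 ± 0.14 (edgeR adjusted p = 0.00927). Col1a2 averaged 264 ± 36.8 CPM in Tyk2DIEC and 419 ± 76.9 CPM in Tyk2fl tumors, with -0.67 ± 0.15 (edgeR adjusted p = 0.00929). Col3a1, which is co-assembled with type I collagen in many fibers, gave -0.19 ± 0.12 (0.274), Col5a2 -0.09 ± 0.12 (0.636) and Col5a1 -0.26 ± 0.11 (0.104). None of the 4 basement membrane genes (fitted values -0.05 to 0.26) and none of the 5 beaded filament genes (-0.20 to 0.15) passed the test. The median over the 38 genes was -0.07, against -0.00 over all genes tested, and 21 of 38 were negative, against 50.4% of all genes.

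With Tyk2fl replicates 4 to 7 as the only controls, edgeR kept the same 4 calls, with -0.77 for Col1a1, -0.80 for Col1a2, -1.46 for Col9a1 and -1.48 for Col9a3, and added Col5a3 as higher (0.60, edgeR adjusted p = 0.0274). In that fit 34 collagen genes were tested, and of all 16516 genes 1915 were called lower and 1632 higher. No call was lost when any of the 11 libraries was left out, Tyk2DIEC replicate 1 included. Depth moved with the genotype, since the deepest Tyk2DIEC library had fewer counts than the shallowest Tyk2fl library, and its part in the result was not tested.

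Lists of genes that act on collagen are read against the whole table, in which 9.71% of genes were called lower and 1799 of 17668 higher, which is about 1 gene in 10 in each direction. At 3 and 2 of 21 the chaperones and modifying enzymes were near that background, as were the receptors at 1 of 9 lower and the other basement membrane genes at 1 of 15 higher. Of 21 chaperones and modifying enzymes 3 fell and 2 rose (list median -0.23). Serpinh1, which encodes the collagen chaperone HSP47, fell with a log2 fold change of -0.88 ± 0.21 (edgeR adjusted p = 0.0137), as did Ppib (-0.31), which encodes cyclophilin B, a prolyl isomerase of the endoplasmic reticulum. Mia2 (0.36) and Mia3 (0.32), whose products help load procollagen into vesicles, rose. Of 13 genes of processing and cross-linking 4 fell and 0 rose (median -0.30), namely Sparc (-0.77), a collagen-binding glycoprotein, the lysyl oxidases Lox (-0.81) and Loxl1 (-0.63), and Pcolce (-0.45), an enhancer of procollagen cleavage. Of 8 small leucine-rich proteoglycans Lum (-1.19) and Dcn (-0.71), which coat collagen fibers, fell.

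Of 9 collagen receptors 1 fell (Mrc2, an endocytic receptor for collagen, -0.68). Of 10 genes of degradation 2 fell (Timp1, -0.89, an inhibitor of matrix metalloproteinases, and Ctsk, -0.76, a collagen-cleaving cathepsin). Of 15 other basement membrane genes 1 rose (Lama3, 0.46). Of 14 genes of TGF-beta signaling, a pathway that induces collagen in fibroblasts, 3 fell and 1 rose, among them Tgfb1 (-0.30) and its matrix target Ccn2 (-0.96), which fell, and Skil (0.38), an inhibitor of the pathway, which rose. These lists were drawn up with results of these data known, so their counts are descriptive.

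Of 13 fibroblast markers 6 fell and 0 rose (median -0.45), against 9.71% of all genes called lower, and they summed to 942, 1009, 1028 and 1008 CPM in Tyk2DIEC tumors, against 1127 to 1861 with a median of 1368 CPM in Tyk2fl tumors. The sums did not overlap. This held too for the sums of processing and cross-linking (434 to 495 CPM in Tyk2DIEC, 508 to 843 CPM in Tyk2fl). It also held for the proteoglycans (333 to 380 CPM in Tyk2DIEC, 388 to 656 CPM in Tyk2fl). Of all single genes tested, 7.81% had Tyk2DIEC wholly below Tyk2fl. Dcn and Lum are in both the fibroblast list and that of the proteoglycans. Smooth muscle markers gave no call (0 of 10, median 0.64), pericyte markers 1 of 5 lower, endothelial markers 1 lower and 1 higher of 8, colon epithelium markers 0 of 8, leukocyte markers 0 of 6, and squamous epithelium markers 1 of 8 higher (Krt4, 2.12). The part of these cell types in the collagen values was not tested.

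**Figure D3:**
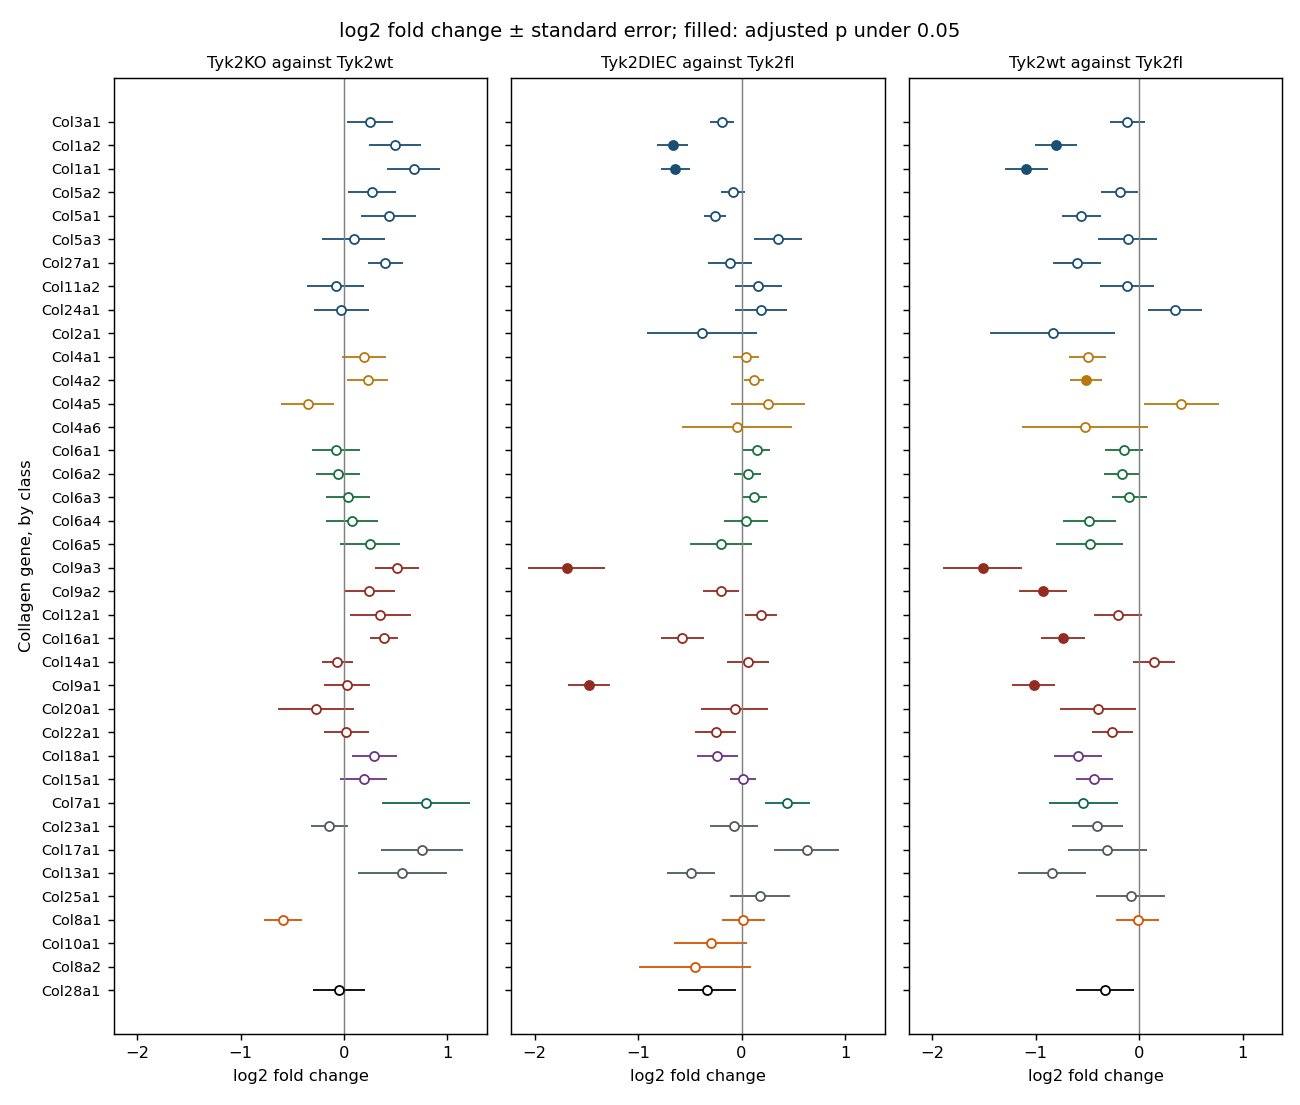
Fitted log2 fold change with its standard error for each collagen gene tested, in Tyk2KO against Tyk2wt (33 genes), Tyk2DIEC against Tyk2fl (38) and Tyk2wt against Tyk2fl (36 genes). Filled points have an edgeR adjusted p under 0.05, of which there are 0, 4 and 7 from left to right.

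Within a library, the ratio of 2 chains does not depend on scaling, and it was computed on the CPM per kb scale as a description. Col1a1 over Col3a1 was 0.455, 0.534 and 0.534 in Tyk2KO tumors and 0.430, 0.360 and 0.375 in Tyk2wt tumors. It was 0.538, 0.569, 0.562 and 0.554 in Tyk2DIEC tumors and 0.619 to 0.892 with a median of 0.790 in Tyk2fl tumors. In each experiment the ranges were disjoint, with Tyk2KO above Tyk2wt and Tyk2DIEC below Tyk2fl. Disjoint groups are common with so few libraries. Among all genes tested, 13.9% had Tyk2KO wholly below Tyk2wt and 7.81% had Tyk2DIEC wholly below Tyk2fl. No such share was computed for ratios. Col1a2 over Col3a1 overlapped in the germline experiment (0.486 to 0.559 in Tyk2KO, 0.432 to 0.512 in Tyk2wt) and was disjoint in the other (0.507 to 0.558 in Tyk2DIEC, 0.637 to 0.877 in Tyk2fl).

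For the chains of type I collagen, Col1a1 over Col1a2 lay at 0.936 to 0.959 in Tyk2KO, 0.833 to 0.856 in Tyk2wt, 0.964 to 1.09 in Tyk2DIEC and 0.948 to 1.12 in Tyk2fl tumors. This ratio was disjoint in the germline experiment, with Tyk2KO above Tyk2wt, and overlapped in the other. Over all 17 libraries Col4a1 over Col4a2 ranged over 1.53 to 1.88 and Col6a1 over Col6a2 over 1.13 to 1.33. The type IX chains varied more. Col9a3 over Col9a2 was 1.16, 2.26 and 2.58 in Tyk2KO and 2.49, 1.17 and 1.32 in Tyk2wt tumors. The same ratio was 0.822, 0.658, 0.752 and 1.02 in Tyk2DIEC tumors and 1.03 to 3.97 with a median of 2.29 in Tyk2fl tumors, so that these chains varied more than 6-fold against each other over the series. Col9a1 over Col9a2 was 0.0240 to 0.0379 in Tyk2DIEC and 0.0561 to 0.129 in Tyk2fl tumors, with no overlap.

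**Figure D4:**
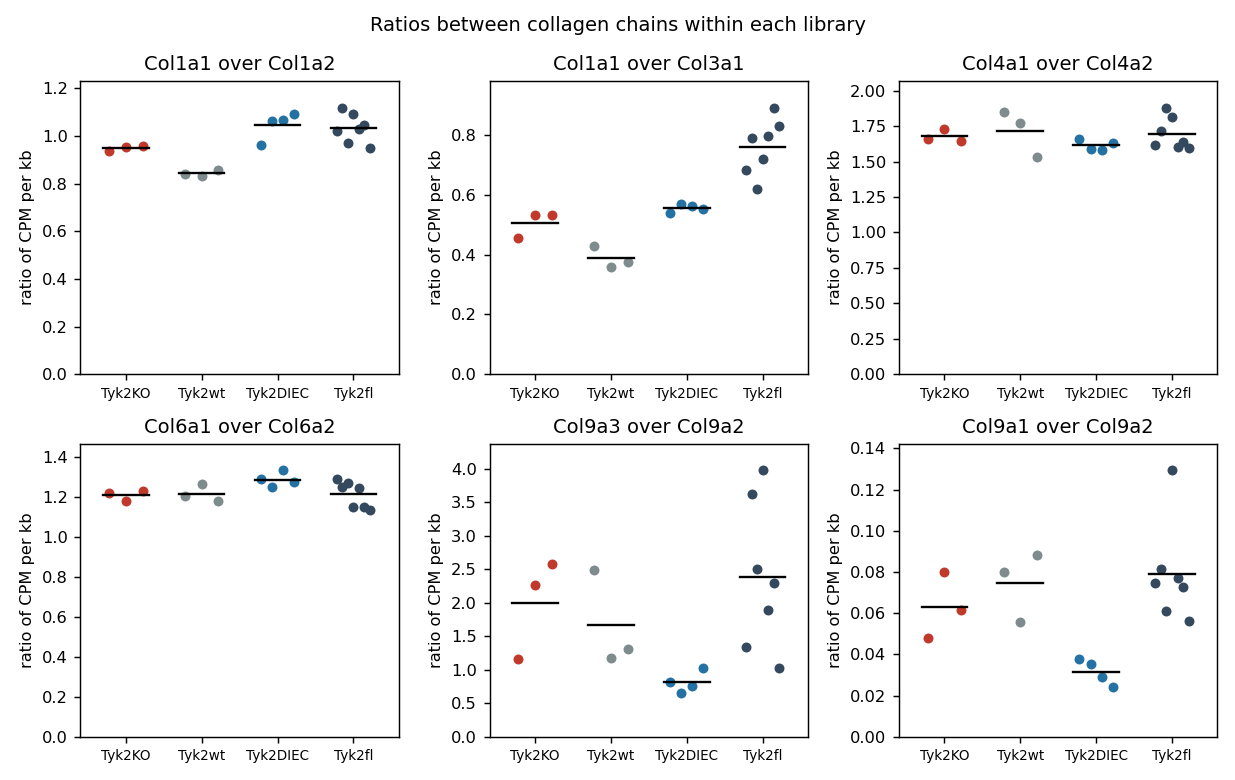
Ratio of CPM per kb between collagen chains within each library (points), with group means (lines). Col4a1 over Col4a2 and Col6a1 over Col6a2 stay within narrow ranges (1.53 to 1.88 and 1.13 to 1.33), while Col1a1 over Col3a1 and both type IX ratios are lower in all Tyk2DIEC libraries than in any Tyk2fl library.

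Classes also differed in their shares. Basement membrane genes held 22, 21.2, 21.6 and 22.2% of collagen counts in Tyk2DIEC tumors, against 13.8 to 20.0 with a median of 17.7% in Tyk2fl tumors. The ranges did not overlap, and no basement membrane gene passed the test. The summed CPM of this class did overlap, at 523 to 597 CPM in Tyk2DIEC and 393 to 647 CPM in Tyk2fl tumors. Beaded filament shares were disjoint in the same direction, at 8.64 to 10.4% in Tyk2DIEC and 6.73 to 8.30% in Tyk2fl tumors. Since a share also rises where other classes are lower, shares alone do not show a change of the class itself. The fibrillar sum was 1222, 1529, 1228 and 1191 CPM in Tyk2DIEC tumors, against 1207 to 1942 with a median of 1735 CPM in Tyk2fl tumors, with overlap. In the germline experiment basement membrane genes held 17.1, 15.7 and 16.3% in Tyk2KO and 16.6, 18.2 and 17.9% in Tyk2wt tumors. These ranges overlapped.

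**Figure D5:**
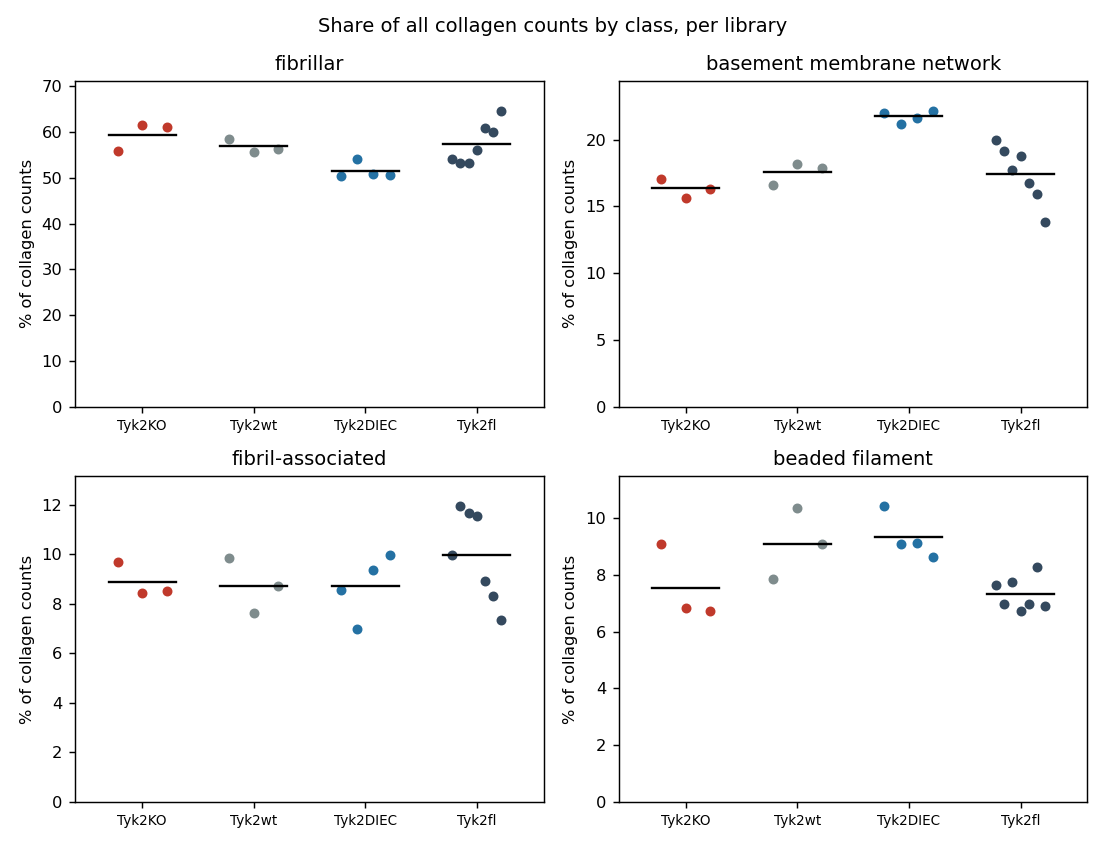
Share of all collagen counts held by 4 collagen classes in each library (points) and the group mean (line). For the basement membrane class the 4 Tyk2DIEC libraries lie between 21.2% and 22.2%, above all 7 Tyk2fl libraries. For the beaded filament class the Tyk2DIEC libraries lie between 8.64% and 10.4%, also above all 7 Tyk2fl libraries.

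Whether the change of a gene differs between the 2 experiments was tested as the change in Tyk2KO over Tyk2wt minus the change in Tyk2DIEC over Tyk2fl, with all 17 libraries in 1 fit. Of the 36 collagen genes tested, edgeR called 4 higher and 0 lower, which is 11.1%, against 2.73% of all 17252 genes called higher and 7.96% called in either direction. All 4 differences passed 2-fold upward, as did 0.812% of all genes. They were 2.21 ± 0.54 for Col9a3 (edgeR adjusted p = 0.0197), 1.51 ± 0.30 for Col9a1 (0.00654), 1.32 ± 0.30 for Col1a1 (0.0119) and 1.17 ± 0.30 for Col1a2 (0.0239). A positive difference means a more positive change in Tyk2KO than in Tyk2DIEC tumors. For Col9a1 this came with 0.03 in Tyk2KO and -1.48 in Tyk2DIEC tumors, and for Col1a1 with 0.67 and -0.64, each against its own controls. Col16a1, with the smallest adjusted p among those not called, gave 0.97 ± 0.32 (edgeR adjusted p = 0.0684). 

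Over all 17252 genes the difference was called positive for 471 (2.73%) and negative for 903. The lists of genes that act on collagen are read against these counts. Of 21 chaperones and modifying enzymes 1 was positive (Crtap, 0.53) and 1 negative (Mia2, -0.49). Of 12 genes of processing and cross-linking 1 was positive (Sparc, 0.91), as was 1 of 8 proteoglycans (Lum, 1.62), 1 of 9 receptors (Mrc2, 1.17) and 2 of 10 genes of degradation (Ctsk, 2.48, and Timp1, 0.88), with 0 negative in these 4 lists. Of 15 other basement membrane genes 0 were called. Among the cell type markers, 2 of 13 of fibroblasts were positive (Fbln1, 0.74, and Lum, 1.62) and 1 of 8 of endothelium (Esam, 0.96), while 1 of 8 of squamous epithelium (Krt4, -2.51) and 1 of 6 of leukocytes (Ptprc, -1.15) were negative. Smooth muscle markers gave 0 calls of 10 (median -1.72), and pericyte, colon epithelium and enteric glia markers gave 0 of 5, 0 of 8 and 0 of 2. The part of these cell types in the collagen values was not tested.

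The calls of the collagen differences did not all hold when 1 library was left out. Col9a1 and Col1a1 stayed called whichever library was left out. Col9a3 lost its call without Tyk2KO replicate 2 (2.16, edgeR adjusted p = 0.0537) and without Tyk2wt replicate 3 (2.02, 0.0657). Col1a2 lost it without Tyk2KO replicate 2 (1.04, edgeR adjusted p = 0.0777), without Tyk2KO replicate 3 (1.03, 0.0582) and without Tyk2wt replicate 3 (1.05, 0.0780). Over all genes, 197 of 17634 were called higher without Tyk2KO replicate 2 and 446 of 17646 without Tyk2KO replicate 3. Without Tyk2wt replicate 3 it was 173 of 17624, against 471 of 17252 with all 17 libraries. With Tyk2fl replicates 4 to 7 only, edgeR called 5 of 35 collagen genes higher and 0 lower, and of all 17026 genes then tested 841 were called higher and 1044 lower.

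The controls of the 2 experiments were compared last, since both keep Tyk2 in every cell. In Tyk2wt against Tyk2fl tumors edgeR called 7 of 36 collagen genes lower and 0 higher. These 19.4% compare with 5.49% of all 17252 genes called lower and 12.9% called in either direction, and 33 of 36 fitted changes were negative, against 49.9% of all genes. The median over the collagen genes was -0.42, against 0.00 over all genes tested. Genotype, experiment and sequencing depth differ together between these groups and cannot be told apart. Xist also differed, with 40656 to 45446 counts in Tyk2fl replicates 1 to 3 and at most 18 in Tyk2wt libraries. Calls with Tyk2fl replicates 4 to 7 only are therefore given below.

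The called genes were Col1a1 (-1.09 ± 0.21, edgeR adjusted p = 0.00436), Col1a2 (-0.80 ± 0.21, 0.0196), Col9a1 (-1.02 ± 0.21, 0.00590), Col9a2 (-0.92 ± 0.23, 0.0168), Col9a3 (-1.51 ± 0.38, 0.0178), Col16a1 (-0.74 ± 0.22, 0.0353) and Col4a2 (-0.51 ± 0.15, 0.0373). All of them but Col4a2 had every Tyk2wt library below every Tyk2fl library, which held for 5.72% of all genes tested. Col1a1, Col9a1 and Col9a3 passed 2-fold, as did 0.933% of all genes downward. Over the 4 genotypes the Tyk2fl tumors had the highest mean CPM of Col1a1, Col1a2, Col9a1, Col9a2 and Col9a3. This comparison, the epithelial one and the difference share the Tyk2fl libraries and are not independent.

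Several of these calls were lost when 1 library was left out. Without Tyk2wt replicate 3 only Col1a1 (-0.98, edgeR adjusted p = 0.0471) and Col9a1 (-1.05, 0.0424) were still called. In that fit 168 of all 17624 genes were called lower, against 947 of 17252 with all 17 libraries. Without Tyk2wt replicate 1 the calls of Col9a2, Col16a1 and Col4a2 were lost, which left 4. There 631 of all 17630 genes were called lower. Col9a3 was lost without Tyk2wt replicate 2 (-1.56, edgeR adjusted p = 0.0545). Col16a1 and Col4a2 were each lost under 6 of 25 alternatives. With Tyk2fl replicates 4 to 7 as the only Tyk2fl libraries 6 of 35 were called lower, all but Col4a2, against 1066 of all 17026 genes. Of the fibroblast markers 3 of 13 were lower in Tyk2wt (median -0.30) and of the endothelial markers 3 of 8 (median -0.54). Leukocyte markers had 2 of 6 higher (Cd79a, 2.88, and Ptprc, 0.65, list median 0.45) and squamous epithelium markers 1 of 8 higher (Krt4, 1.67, list median 0.72), against 1272 of 17252 genes called higher. Smooth muscle, pericyte, colon epithelium and enteric glia markers gave 0 calls of 10, 5, 8 and 2 genes. The part of these cell types in the collagen values was not tested.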

How the data were processed

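Total RNA of AOM/DSS colorectal tumors was sequenced as directional poly(A) libraries, 75-bp single-end reads. The deposited values are raw counts per gene, which the authors made with STAR 2.6.1a and its own gene counting, on GRCm38 per the submitters' processing notes. The strand setting of the counting is not given in the sources used here. All 17 single-sample tables equal the series columns. Of the gene IDs 55240 matched GENCODE M21 (GRCm38), used for symbols, coordinates and transcript lengths, and 181 IDs with 0.00196% of counts did not.

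All genes passing filterByExpr (minimum count 10, minimum total 15) were fitted with the quasi-likelihood F test of edgeR 4.0.16 (R 4.3.3) after TMM scaling, with Benjamini-Hochberg adjustment over all genes tested, two-sided. Each experiment was fitted on its own libraries, and the difference and the comparison of controls on all 17 libraries. Called means an adjusted p under 0.05. The tests were also run on data simulated from the means and dispersions of these counts, under the count model that edgeR assumes. Such data cannot show whether that model fits these libraries, and no result here rests on them. CPM were scaled by TMM over 17 libraries, and sums, shares and ratios carry no test. Promoter windows came from RefSeq (GRCm38.p6).

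Alternatives were DESeq2 1.42.0, limma 3.58.1 (voom), 3 other scalings, no filter and a filter at 50 counts, a replicate block, all 17 libraries in 1 fit, Tyk2fl replicates 4 to 7 only, and each library left out. Library values are given for up to 4 genes per class with the highest mean CPM per kb and for each gene called past 2-fold, except Col8a2, Col10a1 and Col25a1 (under 1 CPM), and other genes by range, and from each list up to 4 genes with the smallest adjusted p are named. The TGF-beta list, although it held calls, is not reported here for Tyk2KO against Tyk2wt tumors or for the difference between the comparisons. Genes and lists were chosen with earlier results of these data known. Total counts were 19129696 to 35427965 per library, which limits the precision of genes with few counts.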

Additional observations from a re-analysis of the deposited data

Results flagged for a closer look

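In the groups of 4 and 7 libraries, 16 of 154 checks found 1 library whose gap to its nearest neighbor, divided by the range of the group, was above Dixon's critical value at the 0.05 level. By the definition of that level chance flags about 1 in 20 groups, and the checked values share libraries. Tyk2DIEC replicate 2 accounts for 8 of them. It had 617 CPM of Col3a1 (other Tyk2DIEC libraries 479 to 488), 374 CPM of Col1a1 (277 to 292), 226 CPM of Col4a2 (194 to 198) and 24.3 CPM of Col9a2 (40.3 to 41.3). Its sum over all collagen genes was 2820 CPM (2356 to 2425), that of the fibrillar class 1529 CPM (1191 to 1228) and that of the basement membrane class 597 CPM (523 to 534), and the fibrillar share was 54.2% (50.4 to 50.8%). Without this library the same number of collagen genes, 4, was called in Tyk2DIEC against Tyk2fl tumors.

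Tyk2DIEC replicate 1 had 19.6 CPM of Col27a1 (others 14.6 to 14.8) and a smooth muscle marker sum of 1395 CPM (others 183 to 226). Tyk2fl replicate 3 had 8.85 CPM of Col17a1 (others 3.16 to 4.91), 5.80 CPM of Col4a5 (1.34 to 3.23) and a fibroblast marker sum of 1861 CPM (1127 to 1395). Tyk2fl replicate 1 had a fibrillar sum of 1207 CPM (1649 to 1942), Tyk2fl replicate 4 a ratio of Col9a1 over Col9a2 of 0.129 (0.0561 to 0.0816), and Tyk2fl replicate 5 a share of 0.347% for the short-chain class (0.156 to 0.235%).

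The change in Tyk2KO over Tyk2wt and the change in Tyk2DIEC over Tyk2fl differed for 4 collagen genes by the edgeR contrast of the difference, with 2.21 for Col9a3, 1.51 for Col9a1, 1.32 for Col1a1 and 1.17 for Col1a2 on the log2 scale.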

How the results depend on the processing

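No collagen gene called in a comparison changed direction under any alternative run. Leaving out 1 library gave between 0 and 2 calls in Tyk2KO against Tyk2wt (main count 0), between 4 and 5 in Tyk2DIEC against Tyk2fl (4), between 2 and 5 for the difference (4) and between 2 and 9 in Tyk2wt against Tyk2fl (7). The other alternatives gave 0, 3 to 5, 4 to 5 and 6 to 10 calls in the same order, the 10 from DESeq2. Of the genes not called, 13 in Tyk2KO against Tyk2wt, 14 in Tyk2DIEC against Tyk2fl, 12 for the difference and 5 in Tyk2wt against Tyk2fl changed sign under some alternative, so their directions carry little weight. Replicate numbers are shared between groups. Deviations of same-numbered libraries from their group means correlated at -0.11 to -0.01 in Tyk2KO and Tyk2wt and at -0.37 to 0.07 in Tyk2DIEC and Tyk2fl. Libraries with different numbers gave -0.10 to 0.18 and -0.24 to 0.35. So few pairs cannot decide whether a shared number marks a pair. With the replicate block, 0 collagen genes were called in Tyk2KO against Tyk2wt and 3 in Tyk2DIEC against Tyk2fl, where Col1a2 then had -0.49 (edgeR adjusted p = 0.0695). The sums of all collagen genes, of the fibrillar class and of the basement membrane class moved by less than 1 SD under total counts and under DESeq2 size factors. Sums of the other classes were not recomputed. No replicate block was fitted for the difference or for Tyk2wt against Tyk2fl. Depth limits the genes with few counts, 5 of which did not pass the filter in Tyk2KO against Tyk2wt tumors.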
